A study of Saccharomyces cerevisiae with 9 samples.

Results

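The white cultures of the yeast mutant cdc13-K504E (K504E-white, 3 libraries) were compared with the red cultures of the same mutant (K504E-red, 3 libraries). These 6 libraries of the 9 in the series were chosen by their sample titles, and all genes of the count table were considered. Both groups carry cdc13-K504E in the W303 background, a laboratory strain of Saccharomyces cerevisiae. Both were kept in the rich medium YPD, without dilution, in stationary phase for 15 days, so they share the mutation, the medium and the time and differ by the colour label. The remaining 3 libraries come from red wild-type cultures grown the same way (WT-red), which entered the fit and whose levels are given for orientation only. No white wild-type group was analysed here, and the labels do not say how many independent white clones the 3 K504E-white replicates represent. The p-values weigh a difference only against the spread between these samples, estimated from all 9 libraries.

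Cdc13 binds the single-stranded end of yeast telomeres, protects it and recruits telomerase. Colony colour reads out another pathway. W303 strains classically carry a nonsense allele of ADE2, which encodes phosphoribosylaminoimidazole carboxylase, and cells blocked at this step accumulate its substrate. The substrate is conjugated to glutathione, pumped into the vacuole and oxidised there to a red pigment, so cells in which the step works, or in which an earlier step is lost, stay white. The ADE genes are activated by the transcription factors Bas1 and Pho2 when intermediates late in the purine pathway are present. Genes against reactive electrophiles and oxidants are controlled mainly by the transcription factor Yap1. Gene counts carry no sequence, so the ADE2 allele of each culture was not examined.

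Library totals were 27388755 to 33228022 counts in K504E-red and 33712194 to 34634199 in K504E-white. The first principal component of the 6 libraries held 87.7% of the variance and placed the 3 white libraries at 18.2 to 18.7 and the red ones at -18.8 to -17.7, and none stood apart from its group. Medians of the log2 fold change over the genes of each of the 16 chromosomes lay between -0.06 and 0.03. CDC13 itself had 27.7 ± 5.18 CPM (counts scaled to the library total) in K504E-red, 21.2 ± 0.507 CPM in K504E-white and 25.2 ± 2.15 CPM in WT-red (SD, n = 3 each). Its log2 fold change of -0.38 (SE 0.126) had an adjusted p of 0.0159 by edgeR, which became 0.0975 when K504E-red replicate 2 was left out and 0.0567 when replicate 3 of that group was. Genes specific to mating type a were expressed in all libraries and summed to 918 to 1017 CPM in K504E-red and 1265 to 1327 in K504E-white. Genes specific to mating type alpha summed to 98.8 to 112 CPM in K504E-red and 56.9 to 61.1 in K504E-white, and 15 sporulation genes of diploid cells to 299 to 312 and 249 to 269. STE3, the a-factor receptor of alpha cells, was near 0, with 2.86, 2.46 and 4.002 CPM in K504E-red and 0.610, 1.75 and 0.906 in K504E-white. The part of these shifts in the results below was not tested.

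White and red cultures of the mutant differed in the level of many genes, mostly by little. Of 5172 genes tested, edgeR called 2820 changed (54.5%), 1409 higher in K504E-white (27.2%) and 1411 lower (27.3%), at an adjusted p under 0.05. The median size of a called change was 0.38 on the log2 scale, and 236 genes (4.56%) were called and differed at least 2-fold, 91 higher and 145 lower. In 61.9% of the genes the 3 white libraries all lay above or all below the 3 red ones. The list counts given below are to be read against these shares, where the median of all tested genes was -0.00426 on the log2 scale. Changes of 4-fold or more were rarer, with 15 genes higher and 28 lower, and 5 genes each way passed 16-fold. The 5 that rose were THI4, DAN1, TIR1, PDC5 and CHA1, and the 5 that fell were FRM2, AAD6, OYE3, GTT2 and GRE2. In bulk RNA, fewer cells that express a gene and less of its RNA per cell cannot be told apart.

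**Figure D1:**
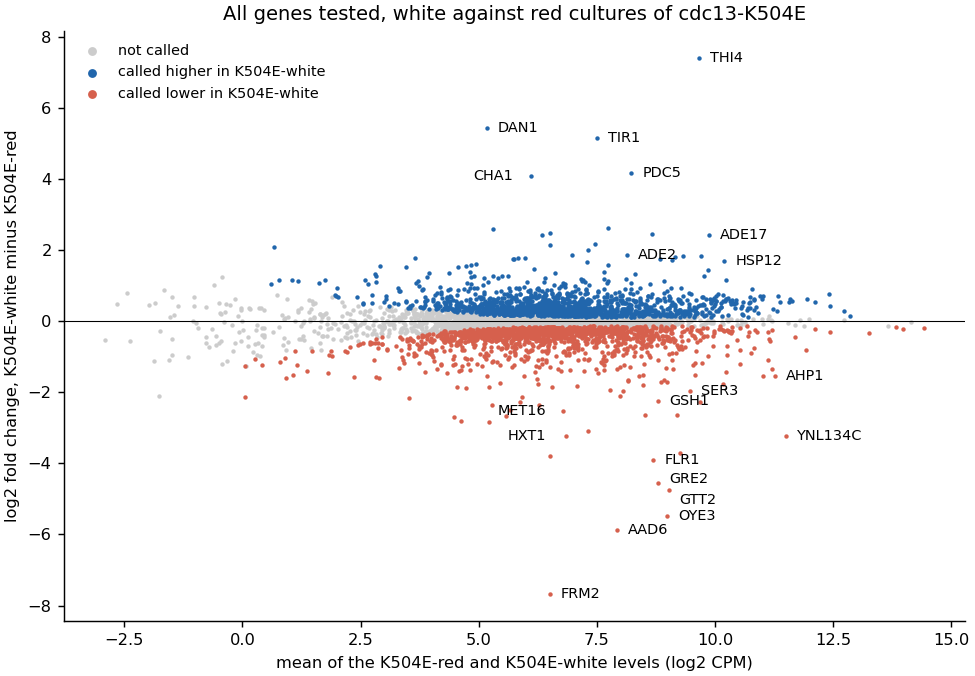
Log2 fold change of K504E-white against K504E-red (vertical) by mean level in log2 CPM (horizontal) for the 5172 genes tested, 1 point a gene, coloured by its call. THI4 stands highest at 7.42 and FRM2 lowest at -7.67, while most called genes lie within 1 of 0.

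**Figure D2:**
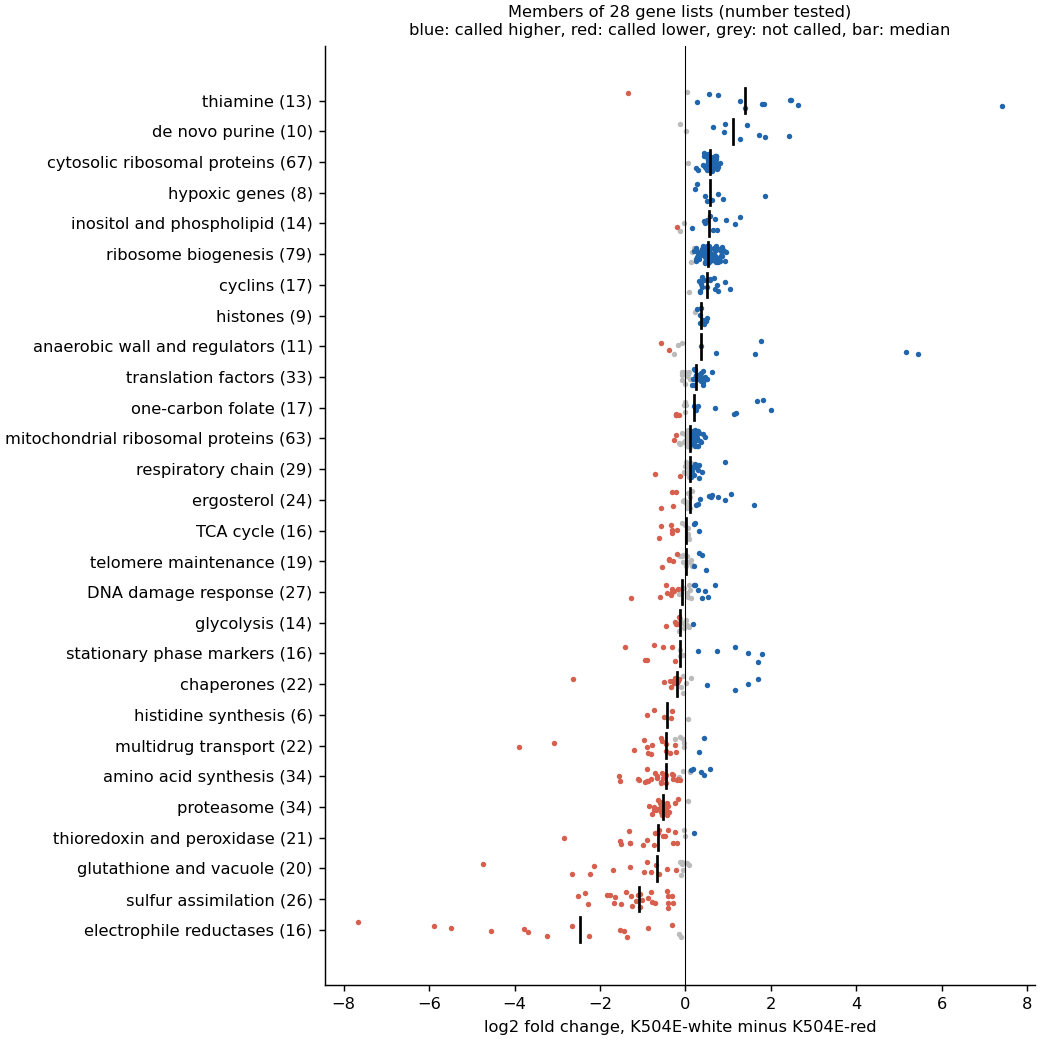
Log2 fold changes (horizontal) of the members of 28 gene lists, 1 point a gene, coloured by its call, with the number tested in brackets and the list median as a bar. Lists run from the electrophile reductases (median -2.47) to the thiamine genes (1.39).

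The de novo purine pathway was higher in the white cultures, from its first committed enzyme to the last step before inosine monophosphate. Of the 10 enzymes of AMP synthesis, 8 rose and the other 2 were not called, with a median log2 fold change of 1.10. ADE2 (YOR128C, contig 141, 11401 to 13116 of the W303 assembly, plus strand), the colour gene, had 129, 112 and 120.3 CPM in the 3 red libraries and 424, 438 and 454 in the 3 white ones. The groups did not overlap, each white library stood more than 3-fold above the highest red one, and WT-red was lower still at 86.2 ± 9.97 CPM. Its log2 fold change was 1.86 (adjusted p 6.16e-13, SE 0.0736) by edgeR. The next enzyme, ADE1, which adds aspartate to the ADE2 product, went from 250.3, 244 and 259.6 CPM to 851, 790.0 and 864 CPM, a log2 fold change of 1.73 (SE 0.0557). ADE13, the lyase that acts after ADE1 and again in the last step to AMP, had 497, 481 and 513 CPM in K504E-red and 1361, 1305 and 1398 CPM in K504E-white. The groups again did not overlap (log2 fold change 1.45, SE 0.0516).

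The steps upstream of ADE2 rose less. ADE4, which commits phosphoribosyl pyrophosphate to purines, had 140.0 ± 3.81 CPM in K504E-red and 262 ± 15.7 in K504E-white, a log2 fold change of 0.91 (SE 0.0551). The bifunctional enzyme that catalyses a pair of early steps, listed by RefSeq as ADE57, had a log2 fold change of 1.28 (SE 0.0532). The transformylase ADE8 had a log2 fold change of 0.64 (SE 0.0585) and the synthetase ADE6 0.93 (SE 0.0493). All 4 were called higher by edgeR, and their white libraries all lay above their red ones.

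The largest rise in the pathway belonged to ADE17, 1 of the isozymes that carry out both final steps to inosine monophosphate. Its level was 339.6, 256 and 290.1 CPM in K504E-red, 1588, 1531 and 1654 CPM in K504E-white and 156 ± 23.6 CPM in WT-red. The white libraries were thus more than 4-fold above the highest red one, and the log2 fold change was 2.43 (adjusted p 7.94e-13, SE 0.0988) by edgeR. Its isozyme ADE16 had 699 ± 41.3 CPM and 704 ± 10.5 CPM, with a log2 fold change of 0.01 (adjusted p 0.892 by edgeR, SE 0.0560). Per kilobase of gene, ADE17 made up 29.6% ± 2.40 of the summed ADE16 and ADE17 level in K504E-red, 69.3% ± 0.505 in K504E-white and 20.2% ± 1.47 in WT-red (SD, n = 3). ADE12, the enzyme that turns inosine monophosphate towards AMP, was the other member not called, with a log2 fold change of -0.13 (adjusted p 0.103 by edgeR, SE 0.0629). It was called lower without WT-red replicate 2 (adjusted p 0.0403 by edgeR). The fit of only the 6 K504E libraries also called 1 gene of this pathway list lower. All white libraries of ADE12 (728, 720 and 715 CPM) lay below its red ones (804, 769 and 788 CPM).

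Of the genes for the activators, PHO2 was called and BAS1 was not. BAS1 had 39.4 ± 2.43 CPM in K504E-red and 38.8 ± 1.37 in K504E-white, a log2 fold change of -0.02 (adjusted p 0.867 by edgeR, SE 0.0982). PHO2 rose from 67.5, 63.4 and 58.9 CPM to 92.9, 92.03 and 89.3 CPM, a log2 fold change of 0.53 (SE 0.0643).

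**Figure D3:**
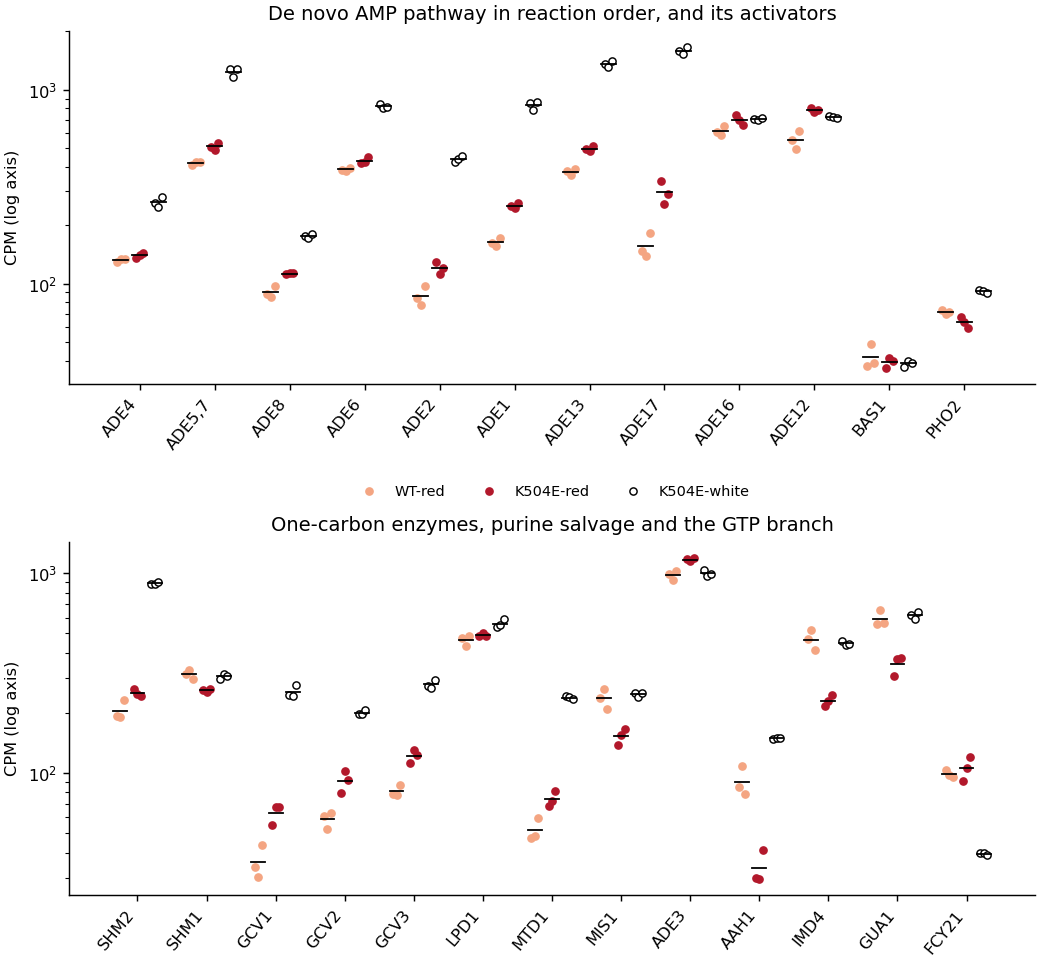
Level in CPM (vertical, log axis) of purine and one-carbon genes in each of the 9 libraries, 1 point a library, with a bar at the mean of each group of 3. In the pathway from ADE4 to ADE17 the open points of K504E-white lie above the red points, while for ADE16 and BAS1 they overlap.

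The folate enzymes that supply one-carbon units for purine synthesis were also higher in part. Of 17 genes listed, 9 rose and 4 fell (median 0.19), and the number that fell was 2 without K504E-white replicate 1. GCV1, a subunit of the mitochondrial glycine cleavage complex, had 55.03, 67.8 and 67.4 CPM in the red libraries and 245, 242 and 275 CPM in the white ones. The groups were about 4-fold apart and did not overlap (log2 fold change 2.00, SE 0.108). The other specific subunits, GCV2 and GCV3, rose by log2 fold changes of 1.13 (SE 0.0827) and 1.19 (SE 0.0661). SHM2, the cytosolic serine hydroxymethyltransferase, had 262, 248 and 242 CPM in K504E-red and 886, 884 and 899.9 CPM in K504E-white, a log2 fold change of 1.83 (SE 0.0668). Its mitochondrial isozyme SHM1 had a log2 fold change of 0.24 (SE 0.0516), and the share of SHM2 in the summed level per kilobase went from 50.3% in K504E-red to 75.3% in K504E-white. MTD1, a cytosolic methylenetetrahydrofolate dehydrogenase, had 68.4, 72.6 and 81.2 CPM in the red libraries and 242, 239 and 234 CPM in the white ones, a log2 fold change of 1.69 (SE 0.0810). ADE3, the trifunctional cytosolic folate enzyme that makes the formyl donor of purine synthesis, went the other way, with a log2 fold change of -0.23 (SE 0.0525).

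Purine salvage and the branch to GTP moved in both directions. Of 18 genes, 8 rose and 5 fell (median 0.14). AAH1, the adenine deaminase, had 29.8, 29.5 and 41.1 CPM in K504E-red, 148, 150.2 and 149 CPM in K504E-white and 90.6 ± 15.5 CPM in WT-red, so that WT-red lay between the mutant groups. Its log2 fold change between white and red was 2.15 (adjusted p 6.95e-11, SE 0.119) by edgeR. IMD4, an inosine monophosphate dehydrogenase, and GUA1, the GMP synthase, rose by log2 fold changes of 0.95 (SE 0.0695) and 0.81 (SE 0.0750), and their white means were close to the WT-red means of 466 and 591 CPM. FCY21, a putative purine and cytosine permease, fell from 91.04, 106 and 121 CPM to 39.96, 39.6 and 38.8 CPM (log2 fold change -1.43, SE 0.0845). Histidine synthesis, whose pathway releases a purine intermediate, was lower: 5 of 6 genes fell, with 1 not called (median -0.42). HIS4 had a log2 fold change of -0.89 (SE 0.0812) and HIS1 -0.73 (SE 0.0600), and the gene not called was HIS6, with 0.05 (SE 0.0922). WT-red means were close to the white ones for HIS4 (1212 and 1217 CPM) and HIS2 (93.2 and 91.6 CPM). The WT-red mean of HIS5 was below the white one (215 and 245 CPM), and those of HIS1 and HIS7 lay between the mutant groups.

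The thiamine genes had the highest median of the pathway lists. Of 13 thiamine genes, 11 rose, 8 of them at least 2-fold, and 1 fell (median 1.39). THI4 (YGR144W, contig 199, 16465 to 17445), the protein that supplies the thiazole ring, had 8.31, 8.69 and 11.2 CPM in K504E-red and 1275, 1669 and 1898 CPM in K504E-white. WT-red had 4.85 ± 1.41 CPM, so both red groups sat near the bottom of the range and only the white libraries were high. The log2 fold change was 7.42 (adjusted p 4.60e-16, SE 0.169) by edgeR. THI20 and THI21, kinases of the pyrimidine moiety of thiamine, rose by log2 fold changes of 1.83 (SE 0.0828) and 2.44 (SE 0.0830). THI6, which joins the pyrimidine and thiazole moieties, rose from 112 ± 6.59 to 293 ± 24.6 CPM (log2 fold change 1.39, SE 0.0753).

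The vitamin B6 and thiamine associated genes SNZ2 and SNO2 rose by log2 fold changes of 2.46 (SE 0.154) and 1.78 (SE 0.114). Counts of SNZ2 are uncertain because SNZ3 is nearly identical in sequence, whereas SNZ1, of the same family, was not called, its log2 fold change being -0.07 (adjusted p 0.664 by edgeR, SE 0.121). PET18, a gene of unknown function with similarity to a thiamine-degrading enzyme, had 52.6, 53.5 and 73.1 CPM in the red libraries and 349, 352 and 406 CPM in the white ones. The activator genes THI2 and THI3 rose by log2 fold changes of 1.26 (SE 0.109) and 0.55 (SE 0.0627), and PDC2, the activator shared by thiamine and pyruvate decarboxylase genes, was not called (log2 fold change 0.03, SE 0.0612). The member that fell was THI72, a transporter related to the thiamine permease, from 24.8 ± 1.65 to 9.80 ± 0.759 CPM (log2 fold change -1.34, SE 0.126). THI73, a permease gene outside the list, rose with a log2 fold change of 2.49 (SE 0.0985).

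PDC5, a pyruvate decarboxylase, an enzyme that uses thiamine pyrophosphate, also rose. It had 35.4, 29.2 and 29.9 CPM in K504E-red, 469, 639 and 600.2 CPM in K504E-white and 76.7 ± 15.6 CPM in WT-red, with no overlap between the groups. The log2 fold change was 4.17 (adjusted p 5.48e-14, SE 0.138) by edgeR. PDC1, the main isozyme, had 10830 ± 1068 CPM in K504E-red and 8634 ± 443 in K504E-white (log2 fold change -0.33, SE 0.0715). Per kilobase, PDC5 went from 0.293% ± 0.0481 of the summed level of the 3 isozymes to 6.18% ± 0.856 (SD, n = 3).

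**Figure D4:**
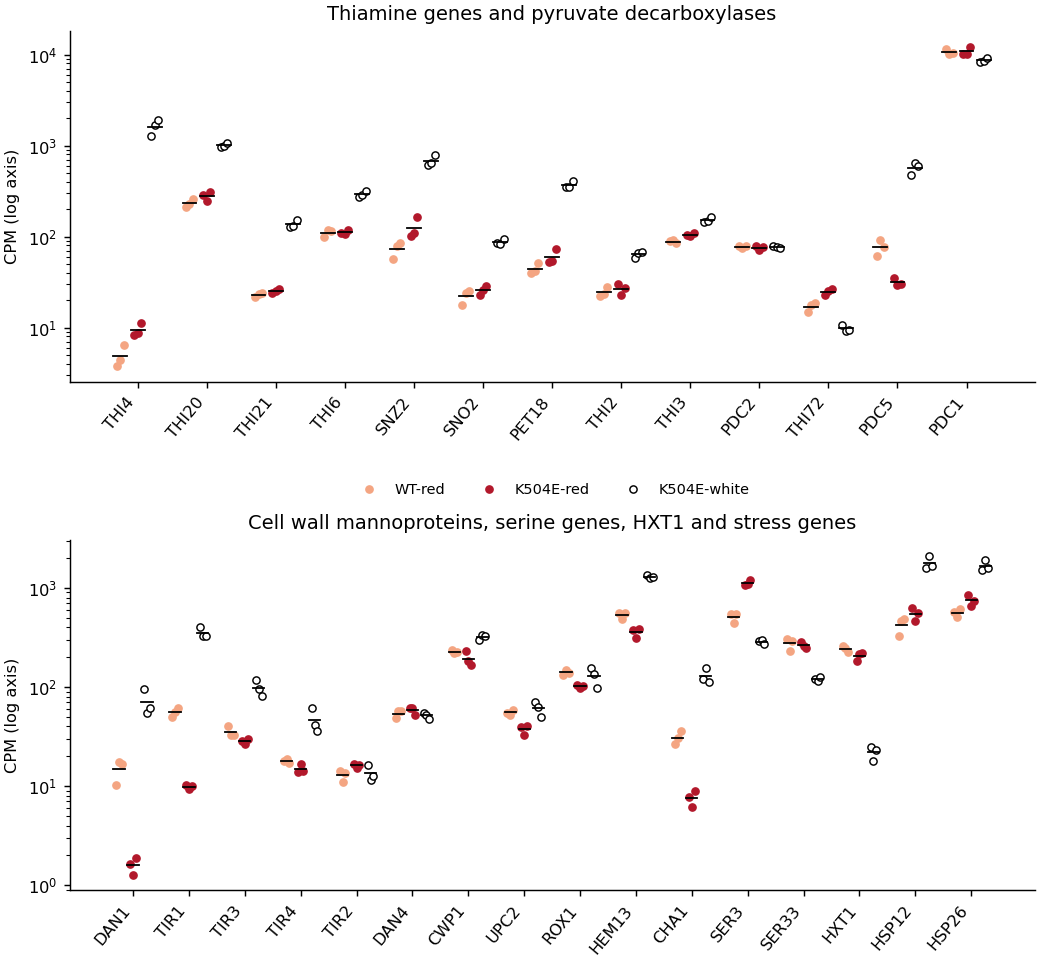
Level in CPM (vertical, log axis) in each of the 9 libraries of thiamine and pyruvate decarboxylase genes (top) and of wall, serine, hexose transport and stress genes (bottom), 1 point a library, bars at group means. For THI4 the open points of K504E-white lie above 1000 CPM and both red groups near or below 10.

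Genes of serine and glycine metabolism moved in both directions. Of 17 genes of serine, glycine and threonine metabolism, 6 rose and 9 fell (median -0.26). CHA1, the catabolic serine and threonine deaminase, had 7.72, 6.16 and 8.84 CPM in K504E-red and 120.4, 157 and 112 CPM in K504E-white. WT-red lay between, at 30.9 ± 4.77 CPM, and the log2 fold change was 4.09 (adjusted p 2.51e-13, SE 0.150) by edgeR. SER3, a phosphoglycerate dehydrogenase that starts serine synthesis, moved the opposite way, with 1072, 1093 and 1213 CPM in the red libraries and 294, 296 and 272 CPM in the white ones. WT-red was again between them at 513 ± 59.96 CPM, and the log2 fold change was -1.97 (SE 0.0763). Its isozyme SER33 fell (log2 fold change -1.13, SE 0.0821) to 121 ± 5.46 CPM, below the WT-red level of 276 ± 38.5 CPM.

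The deepest falls were in reductases that detoxify reactive carbonyls and other electrophiles. Of 16 such genes, 14 fell, 12 of them at least 2-fold, and the other 2 were not called (median -2.47). In the 3 white libraries the list median relative to the K504E-red mean was -2.50, -2.45 and -2.31 on the log2 scale, and in WT-red it was -0.58, -0.34 and -0.35. FRM2 (YCL026C-A, contig 142, 7616 to 8197), a nitroreductase-like protein, had 171, 129.8 and 243 CPM in K504E-red and 0.668, 1.13 and 0.846 CPM in K504E-white. The white libraries were near 1 CPM, WT-red had 98.98 ± 28.97 CPM, and the log2 fold change was -7.67 (adjusted p 7.35e-13, SE 0.309) by edgeR. OYE3, an old yellow enzyme that reduces unsaturated carbonyls, had 1027, 852 and 1089 CPM in the red libraries and 21.2, 20.2 and 24.7 CPM in the white ones, with WT-red at 542 ± 128 CPM. The log2 fold change of OYE3 was -5.49 (SE 0.158). Its paralog OYE2 had a log2 fold change of -1.54 (SE 0.0789), and OYE3 went from 24.3% ± 1.23 of their summed level per kilobase to 2.05% ± 0.217.

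AAD6, an aryl alcohol dehydrogenase, had 456, 461 and 526 CPM in K504E-red and 8.66, 7.45 and 8.49 CPM in K504E-white, a log2 fold change of -5.87 (SE 0.136). GRE2, a methylglyoxal reductase, had 889.8, 780.3 and 898 CPM in the red libraries and 29.9, 37.8 and 42.5 CPM in the white ones, a log2 fold change of -4.54 (SE 0.122). For both genes the lowest red library stood more than 10-fold above the highest white one. The reductase-like genes OSI1, YML131W and YNL134C had log2 fold changes of -3.79 (SE 0.156), -3.69 (SE 0.0945) and -3.24 (SE 0.0668). YNL134C was the most abundant of these, with 5212 ± 160.0 CPM in K504E-red. HBN1, a paralog of FRM2, and ADH6, a broad alcohol dehydrogenase, had a log2 fold change of -2.67 (SE 0.107) and -2.27 (SE 0.0678). LOT6 and AAD15 were the members not called, at -0.11 (SE 0.0920) and -0.15 (SE 0.154).

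**Figure D5:**
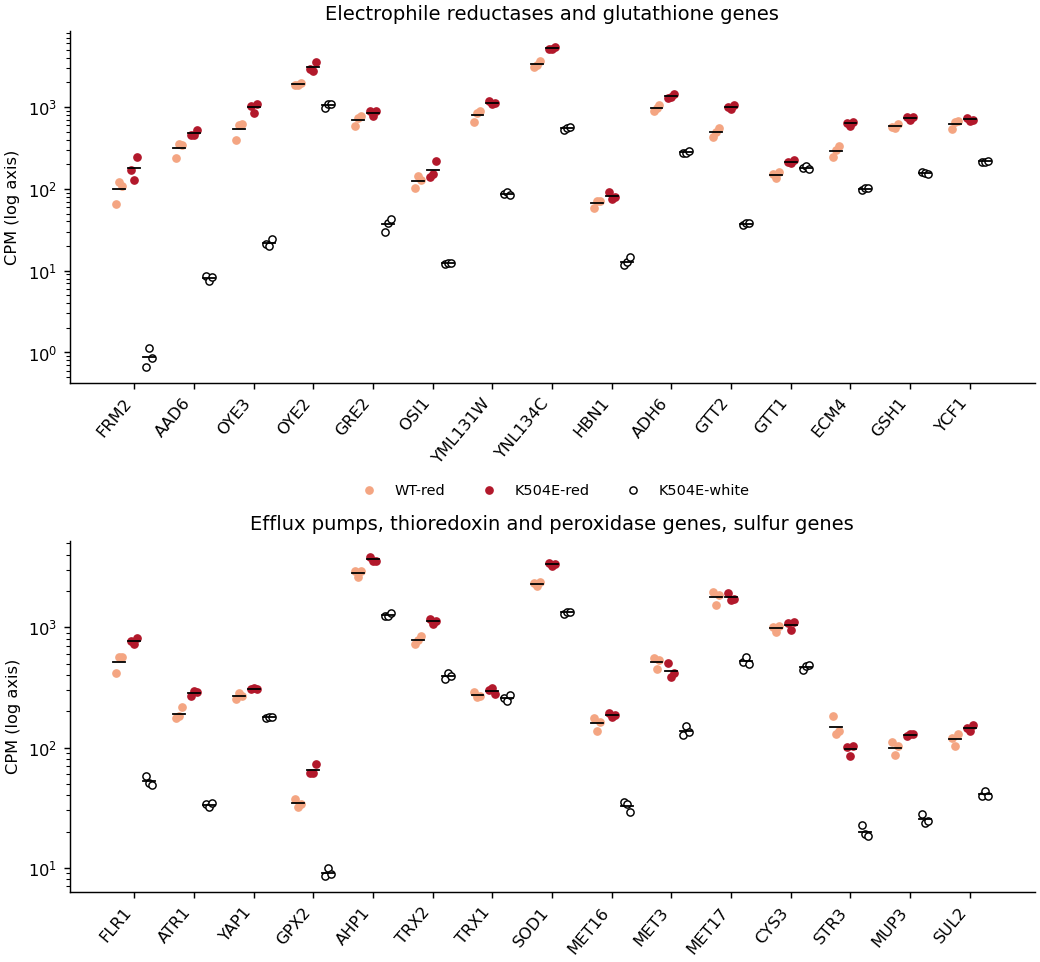
Level in CPM (vertical, log axis) in each of the 9 libraries of electrophile reductase and glutathione genes (top) and of efflux, thioredoxin, peroxidase and sulfur genes (bottom), 1 point a library, bars at group means. The open points of K504E-white lie below both red groups for genes such as FRM2, OYE3 and FLR1, whereas GTT1 and TRX1 differ little.

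Glutathione synthesis, conjugation and transport to the vacuole, the route taken by the pigment precursor, were also lower. Of 20 genes, 13 fell, with 7 not called (median -0.66). GSH1, the rate-limiting enzyme of glutathione synthesis, had 752, 688 and 761 CPM in K504E-red and 159, 156 and 151 CPM in K504E-white. WT-red lay nearer to the red mutant, at 585 ± 25.8 CPM, and the log2 fold change was -2.24 (adjusted p 1.63e-15, SE 0.0570) by edgeR. GSH2, the second enzyme, fell (log2 fold change -0.69, SE 0.0498). The glutathione transferase GTT2 had 1000, 943 and 1055 CPM in the red libraries and 36.1, 38.4 and 38.05 CPM in the white ones, a log2 fold change of -4.74 (SE 0.0856). The related transferase GTT1 fell (log2 fold change -0.23, SE 0.0631), so GTT2 went from 82.4% ± 0.320 of their summed level per kilobase to 17.1% ± 0.605. ECM4 and GTO1, omega-class transferases, had log2 fold changes of -2.65 (SE 0.0833) and -2.13 (SE 0.0954).

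YCF1, the vacuolar pump that imports glutathione conjugates, had 733, 679 and 705 CPM in K504E-red, 215, 216 and 220.0 CPM in K504E-white and 624 ± 69.6 CPM in WT-red. The white libraries were about 3-fold below the red ones without overlap (log2 fold change -1.70, SE 0.0682). The related vacuolar pumps BPT1, YBT1 and VMR1 were not called, with log2 fold changes of 0.04 (SE 0.0541), -0.07 (SE 0.0573) and -0.08 (SE 0.0772). GLR1, which regenerates reduced glutathione, fell (log2 fold change -1.31, SE 0.0530). ECM38, the enzyme that opens glutathione breakdown in the vacuole, fell as well (log2 fold change -0.81, SE 0.0630).

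Thioredoxins, peroxidases and superoxide dismutases fell as well. Of 21 genes, 18 fell and 1 rose (median -0.65). GPX2, a glutathione peroxidase family member, went from 61.8, 61.2 and 72.6 CPM in K504E-red to 8.51, 10.04 and 8.82 CPM in K504E-white, and WT-red was between at 34.5 ± 2.88 CPM. The log2 fold change of GPX2 was -2.84 (SE 0.108). AHP1, an abundant peroxiredoxin, had 3884, 3577 and 3585 CPM in the red libraries and 1236, 1247 and 1322 CPM in the white ones (log2 fold change -1.54, SE 0.0598). TRX2, the stress-induced thioredoxin, had a log2 fold change of -1.51 (SE 0.0653) and its isozyme TRX1 one of -0.19 (SE 0.0597), a call lost without K504E-red replicate 2 (adjusted p 0.0681 by edgeR) or K504E-white replicate 2 (0.0742). SOD1, the cytosolic superoxide dismutase, and CCS1, which loads its copper, had log2 fold changes of -1.33 (SE 0.0523) and -1.29 (SE 0.0504). The member that rose was CCP1, the mitochondrial cytochrome c peroxidase (log2 fold change 0.21, SE 0.0478).

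Of 22 multidrug transport genes and their activators, 15 fell and 2 rose (median -0.45). The efflux pump FLR1 had 778, 734 and 819.5 CPM in K504E-red and 57.7, 50.7 and 49.1 CPM in K504E-white, a log2 fold change of -3.89 (SE 0.106). ATR1, another efflux pump, had 270.1, 297 and 289 CPM in the red libraries and 34.1, 32.03 and 34.6 CPM in the white ones (log2 fold change -3.09, SE 0.0772). Both pumps are known Yap1 targets, and YAP1 itself fell from 308 ± 2.68 to 179 ± 2.30 CPM (log2 fold change -0.79, SE 0.0520). YRR1, a zinc cluster activator of efflux genes, fell (log2 fold change -1.20, SE 0.0860). PDR5, the major pump of the pleiotropic drug response, fell by less (log2 fold change -0.35, SE 0.0654). The members that rose were ICT1 (log2 fold change 0.42, SE 0.0656) and PDR12, a weak acid pump (log2 fold change 0.33, SE 0.0737). Together with the sulfur genes described next, the reductase, glutathione, thioredoxin and transport lists held 43 of the 145 genes that fell at least 2-fold.

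Sulfate assimilation and the synthesis of methionine and cysteine were lower throughout. All 26 genes of the list fell, 16 of them at least 2-fold, with a median of -1.08, against 27.3% called lower among all genes. MET16, which reduces activated sulfate, had 194, 179 and 188 CPM in K504E-red, 35.2, 33.6 and 29.3 CPM in K504E-white and 159 ± 20.1 CPM in WT-red. Its white libraries were all more than 3-fold below every library of both red groups, and the log2 fold change was -2.51 (adjusted p 1.50e-13, SE 0.0885) by edgeR. MET17, which fixes sulfide into homocysteine, had 1943, 1706 and 1723 CPM in the red libraries and 513, 569 and 498 CPM in the white ones (log2 fold change -1.77, SE 0.0814). The low-affinity methionine permease MUP3 fell (log2 fold change -2.35, SE 0.0869), the cystathionine lyase STR3 (log2 fold change -2.27, SE 0.120) and the sulfate permease SUL2 (log2 fold change -1.83, SE 0.0799). CYS3, which makes cysteine for glutathione, fell from 1051 ± 84.9 to 470.0 ± 21.9 CPM (log2 fold change -1.16, SE 0.0650). The smallest fall was that of MET4, the activator of the sulfur genes (log2 fold change -0.29, SE 0.0691).

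Other amino acid synthesis genes were lower by smaller amounts. Of 34 genes under general amino acid control, 25 fell and 5 rose (median -0.46), the latter count being 3 without K504E-red replicate 1 or without K504E-white replicate 1 or 3. HOM3, the aspartate kinase that opens threonine and methionine synthesis, and LYS20, a homocitrate synthase with a near-identical copy in LYS21, had log2 fold changes of -1.54 (SE 0.0815) and -1.54 (SE 0.112). The arginine gene CPA1 had a log2 fold change of -0.94 (SE 0.0617). The activator GCN4 had a log2 fold change of 0.13 (SE 0.0524), and ARG8 and the branched-chain genes ILV5 and ILV3 rose with a log2 fold change of 0.58 (SE 0.0858), 0.42 (SE 0.0529) and 0.36 (SE 0.0503). Among 18 amino acid permeases, 6 rose and 6 fell (median 0.06). The general permease GAP1 and the proline permease PUT4 rose by log2 fold changes of 0.90 (SE 0.0760) and 1.10 (SE 0.115).

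Cell wall mannoproteins that yeast normally makes without oxygen were raised, but not as a whole family. The list of 11 genes held such mannoproteins, their regulators and the sterol importers AUS1 and PDR11. Of these 11, 6 rose and 2 fell (median 0.36). Those that fell were PDR11 (log2 fold change -0.38, SE 0.0867) and the regulator HAP1, and AUS1 was not called. DAN1 had 1.64, 1.28 and 1.88 CPM in K504E-red, 94.7, 55.2 and 60.8 CPM in K504E-white and 14.8 ± 3.88 CPM in WT-red. The white libraries varied most but all lay above WT-red, which in turn lay above K504E-red, and the log2 fold change between white and red was 5.44 (adjusted p 5.03e-12, SE 0.251) by edgeR. TIR1 had 10.2, 9.31 and 10.04 CPM in the red libraries and 399.6, 328 and 328 CPM in the white ones, with WT-red at 56.01 ± 5.67 CPM, and a log2 fold change of 5.16 (SE 0.100). TIR3 and TIR4 rose by log2 fold changes of 1.78 (SE 0.117) and 1.63 (SE 0.158). TIR2 and DAN4 were not called, with -0.26 (SE 0.148) and -0.17 (SE 0.0875). TIR2 was called lower without K504E-white replicate 1 (adjusted p 0.0365 by edgeR) and DAN4 without K504E-red replicate 3 (0.0284).

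UPC2, an activator of sterol and anaerobic genes, rose from 39.3, 32.6 and 40.3 CPM to 70.2, 63.03 and 49.9 CPM (log2 fold change 0.71, SE 0.109), with WT-red at 55.4 ± 3.42 CPM. ROX1, the repressor of hypoxic genes, rose with a log2 fold change of 0.36 (SE 0.110), a call lost without K504E-white replicate 1 (adjusted p 0.0990 by edgeR), and HAP1, the heme-responsive activator, fell (log2 fold change -0.57, SE 0.0526). CWP1, a mannoprotein of aerobic walls, also rose, by 0.71 (SE 0.0883). The hypoxic list had 8 of 8 genes higher (median 0.56), but the white and red libraries of SUT1 and CYC7 overlapped. WT-red means were close to the white ones for ANB1 (498 and 511 CPM), OLE1 (4416 and 4774) and SUT1 (24.9 and 26.7). For AAC3, HEM14, CYC7 and HMG2 the WT-red means lay nearer to those of K504E-red. HEM13, the oxygen-requiring coproporphyrinogen oxidase of heme synthesis, had 380.4, 314 and 383 CPM in K504E-red, 1358, 1248 and 1281 CPM in K504E-white and 534 ± 37.1 CPM in WT-red. Its white libraries stood above both red groups, and the log2 fold change was 1.85 (adjusted p 6.89e-13, SE 0.0739) by edgeR. CYC7, the hypoxic cytochrome c, had a log2 fold change of 0.27 (SE 0.0768), which was not called without K504E-white replicate 1 (adjusted p 0.0573 by edgeR).

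Lipid synthesis was higher in part. Of 24 ergosterol and mevalonate genes, 10 rose and 4 fell (median 0.10). ERG5, a late sterol desaturase, rose from 105 ± 9.51 to 319.7 ± 74.3 CPM (log2 fold change 1.60, SE 0.117), and HMG1, an HMG-CoA reductase, by 1.07 (SE 0.112). Both varied between the white libraries, with 394, 320 and 245 CPM for ERG5 and 358, 266 and 226 CPM for HMG1. The WT-red levels of 270 ± 13.2 and 249 ± 15.3 CPM lay within these ranges. The isozyme HMG2 rose less (log2 fold change 0.23, SE 0.0503), so HMG1 went from 34.0% to 47.5% of their summed level per kilobase. Of 14 inositol and phospholipid genes, 11 rose (median 0.55), led by INO1 (log2 fold change 1.27, SE 0.192), the inositol phosphate synthase, and ITR1 (log2 fold change 1.15, SE 0.0641), an inositol permease. CHO2 was the member that fell (log2 fold change -0.21, SE 0.0756), and it was not called when K504E-red replicate 1 or 2, or replicate 1 or 3 of K504E-white, was left out. Of 11 fatty acid genes, 10 rose (median 0.37), among them the desaturase OLE1 (log2 fold change 0.63, SE 0.0659) and the acetyl-CoA carboxylase ACC1 (log2 fold change 0.37, SE 0.0556). Means of OLE1 and ACC1 were 4774 and 1541 CPM in K504E-white and 4416 and 1595 CPM in WT-red.

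Genes for the cytosolic translation apparatus were higher. Of 67 genes on the cytosolic ribosomal protein list, 66 rose, with 1 not called (median 0.58), and the exception was RPL10 (log2 fold change 0.06, SE 0.0540). Their median relative to the K504E-red mean was 0.555, 0.541 and 0.636 on the log2 scale in the white libraries and 0.545, 0.50 and 0.381 in WT-red, so the white cultures and WT-red overlapped. Many of these genes have near-identical copies, and how such reads were counted is not given in the sources used here. Of 79 ribosome biogenesis genes, 75 rose, with 4 not called (median 0.53). NOP13, ENP2 and EBP2, nucleolar proteins, had the largest rises of this list at 0.95 (SE 0.0746), 0.93 (SE 0.107) and 0.91 (SE 0.0674). Their WT-red means of 133.5, 100.2 and 187.6 CPM were close to the K504E-white means of 136.7, 99.63 and 200.3 CPM. Of 33 translation factors, 24 rose (median 0.25), for example the elongation factor YEF3 (log2 fold change 0.42, SE 0.0596). RNA polymerase I and III genes had 12 of 29 higher and 1 lower (median 0.19), with RPA190, the largest subunit of polymerase I, at 0.75 (SE 0.0803). RPA190 had means of 194.9, 327.1 and 329.8 CPM in K504E-red, K504E-white and WT-red. Mitochondrial ribosomal protein genes moved less, with 25 of 63 higher, 2 lower and a median of 0.11. Without K504E-white replicate 3 the number higher was 13.

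Cell cycle genes were slightly higher. Of 17 cyclin genes and their regulators, 16 rose, with 1 not called (median 0.50). FAR1, the inhibitor that arrests mating cells, rose from 74.3, 70.1 and 77.1 CPM to 148, 155 and 150.3 CPM (log2 fold change 1.03, SE 0.0590), the mitotic cyclin CLB1 by 0.93 (SE 0.0554) and the start cyclin CLN1 by 0.69 (SE 0.0735). Means of FAR1, CLB1 and CLN1 were 73.8, 95.2 and 58.4 CPM in K504E-red, 151, 181 and 93.9 in K504E-white and 128, 109 and 86.0 in WT-red. SIC1 was not called (log2 fold change 0.08, SE 0.0510). Of 9 histone genes, 8 rose (median 0.37), with HTB2 at 0.51 (SE 0.0542). Replication genes had 13 of 28 higher and the other 15 not called (median 0.17). Among those that rose were POL30, the sliding clamp (log2 fold change 0.50, SE 0.0707), and MCM2 (log2 fold change 0.43, SE 0.0741). WT-red was not below the white cultures for POL30 and MCM2, but it was for MCM5, another replication gene that rose (means 107 and 117 CPM). POL30 had 137 ± 8.23 CPM in WT-red and 105 ± 7.74 in K504E-white, and MCM2 had 76.8 ± 2.58 and 76.4 ± 4.49 CPM.

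Proteasome genes were lower. Of 34 genes, 33 fell, with 1 not called (median -0.52). PRE8, a subunit of the catalytic core, had 422, 403 and 400.1 CPM in K504E-red, 226, 221 and 232 CPM in K504E-white and 381 ± 11.6 CPM in WT-red (log2 fold change -0.85, SE 0.0494). RPT1, an ATPase of the regulatory particle, had a log2 fold change of -0.79 (SE 0.0501), and RPN4, the activator of proteasome genes, -0.25 (SE 0.0516). RPN14, an assembly chaperone, was the member not called (log2 fold change 0.07, SE 0.0909).

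Chaperones and stress genes moved both ways. Of 22 chaperone genes, 4 rose and 13 fell (median -0.20). HSP12, a small membrane-associated stress protein, had 634, 464 and 559 CPM in K504E-red and 1590, 2120 and 1683 CPM in K504E-white, with WT-red at 425 ± 85.96 CPM. The white libraries were the highest and did not overlap either red group (log2 fold change 1.70, SE 0.133, adjusted p 7.58e-09 by edgeR). The small heat shock protein HSP26 and the Hsp70 gene SSA3 rose by log2 fold changes of 1.16 (SE 0.0931) and 1.46 (SE 0.119). HSP31, a methylglyoxalase, fell from 1019, 864 and 1134 CPM to 148, 181 and 155 CPM (log2 fold change -2.64, SE 0.103), and the falls of HSP104 and HSP82 were -0.21 (SE 0.0591) and -0.14 (SE 0.0568). Among 16 stationary phase markers, 6 rose and 7 fell (median -0.13), with SPG4 highest at 1.78 (SE 0.202) and SPS100 lowest at -1.40 (SE 0.135).

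Of 19 trehalose and glycogen genes, 7 rose and 8 fell (median -0.12). The glycogen genes GAC1 and GSY1 rose by log2 fold changes of 1.08 (SE 0.0700) and 0.60 (SE 0.0837), and TSL1, a subunit of the trehalose synthase, fell (log2 fold change -0.95, SE 0.0614). Of 16 endoplasmic reticulum chaperone genes, 13 were not called, whereas ERO1, the oxidase that drives disulfide formation, fell from 779, 699 and 716 CPM to 233, 244 and 227 CPM (log2 fold change -1.64, SE 0.0627).

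HXT1, the low-affinity glucose transporter, fell. It had 185, 217 and 221 CPM in K504E-red, 25.1, 17.7 and 23.2 CPM in K504E-white and 244 ± 15.8 CPM in WT-red, and the lowest red library stood more than 7-fold above the highest white one. Its log2 fold change was -3.24 (adjusted p 4.11e-14, SE 0.103) by edgeR, within a list of 15 transporters, sensors and regulators in which 8 fell and 2 rose. Without K504E-white replicate 2, 1 gene of this list rose. SFA1, the glutathione-dependent formaldehyde dehydrogenase, fell (log2 fold change -1.94, SE 0.0636). In the glyoxylate and gluconeogenesis list, 7 of 14 genes rose and 1 fell (median 0.41). The rises were led by JEN1, the lactate and pyruvate permease (log2 fold change 1.75, SE 0.104), and included SFC1, whose libraries overlapped at a low level. The member that fell was ICL2 (log2 fold change -0.20, SE 0.0735), and the number that fell was 0 without replicate 1 or 2 of either mutant group. PCK1 and MLS1 were not called. Of 13 retrograde response genes, 10 fell and 1 rose (median -0.27), among them DLD3 (log2 fold change -1.24, SE 0.0587) and CIT2 (log2 fold change -0.26, SE 0.0750), the peroxisomal citrate synthase used as reporter of that response.

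Of 29 nuclear respiratory chain genes, 12 rose and 2 fell (median 0.11). NDE1 and NDE2, the external NADH dehydrogenases, moved in opposite directions, by -0.70 (SE 0.0877) and 0.92 (SE 0.131). COX6 was the other member that fell (log2 fold change -0.13, SE 0.0519), and the number that fell was 1 when K504E-red replicate 2 or 3, or replicate 1 or 2 of K504E-white, was left out. Of 12 glycerol genes, 8 fell and 2 rose (median -0.34), with the glycerol phosphatase GPP2 lowest at -1.79 (SE 0.0857).

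The iron regulon was split. Of 24 genes, 7 rose and 11 fell (median -0.17). FET3, the multicopper oxidase of high-affinity iron uptake, had 45.1, 64.97 and 50.6 CPM in K504E-red, 191, 188 and 208 CPM in K504E-white and 83.96 ± 2.17 CPM in WT-red (log2 fold change 1.87, SE 0.0958). Its partner permease FTR1 rose with a log2 fold change of 0.80 (SE 0.0698) and the low-affinity transporter FET4 by 1.19 (SE 0.0510). The reductase FRE1 fell (log2 fold change -0.95, SE 0.118) and the mitochondrial iron carrier MRS4 (log2 fold change -0.64, SE 0.0655). On the phosphate list 4 of 15 genes rose and 2 fell, PHM8 and GPP2 (median -0.03), and 2 rose without K504E-white replicate 2. This list also held the kinetochore gene CTF19, and GPP2 is the glycerol phosphatase counted above, so its counts are not those of the phosphate regulon alone. Among 25 nitrogen catabolite genes, 11 rose and 9 fell (median 0.13), with CAR2, of arginine breakdown, highest at 1.60 (SE 0.126). In NAD synthesis BNA4 rose with a log2 fold change of 1.22 (SE 0.0706) while BNA3 and BNA1 had log2 fold changes of -1.33 (SE 0.0841) and -0.95 (SE 0.0609). APE1, a vacuolar aminopeptidase, and ATG1, the autophagy kinase, had log2 fold changes of -1.43 (SE 0.0671) and -1.05 (SE 0.0820), in a list where 9 of 21 genes fell.

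Telomere maintenance, the process in which Cdc13 acts, had genes called in both directions, none of them by 2-fold. Of 19 telomere maintenance genes, 4 rose and 5 fell (median 0.01), so that 47.4% were called, against 54.5% of all genes. Without K504E-white replicate 2 the number that rose was 2, and without K504E-red replicate 2 or K504E-white replicate 1 the number that fell was 3. RRM3, a telomeric and ribosomal DNA helicase, and RAP1, the telomere repeat binding factor, rose by log2 fold changes of 0.48 (SE 0.101) and 0.40 (SE 0.0622), and XRS2, of the end-processing complex with MRE11 and RAD50, fell (log2 fold change -0.56, SE 0.0847). The Cdc13 partners STN1 and TEN1 were not called, with log2 fold changes of 0.04 (SE 0.109) and -0.09 (SE 0.147). Of 27 DNA damage genes, 7 rose and 9 fell (median -0.09). RNR4, a small subunit of ribonucleotide reductase, rose from 695, 631 and 656 CPM to 1095, 1023 and 1072 CPM (log2 fold change 0.69, SE 0.0531). RAD59, a strand-annealing protein used by telomerase-independent survivors, had 38.9, 33.3 and 33.2 CPM in K504E-red, 14.6, 17.8 and 11.4 CPM in K504E-white and 40.4 ± 4.62 CPM in WT-red (log2 fold change -1.27, SE 0.138). RAD52 and the checkpoint adaptor RAD9 had log2 fold changes of -0.46 (SE 0.0703) and -0.59 (SE 0.0775).

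The markers of the mating types shifted in opposite directions. All 4 genes specific to mating type a were called higher, with STE2, the alpha-factor receptor, at 576, 514 and 550.5 CPM in K504E-red and 677, 676 and 706 CPM in K504E-white (log2 fold change 0.33, SE 0.0515). The call of ASG7 (log2 fold change 0.41, SE 0.143) was lost without K504E-red replicate 2 (adjusted p 0.111 by edgeR) or K504E-white replicate 2 (0.0861) or 3 (0.0609). Of 5 genes specific to mating type alpha, 4 fell, SAG1, the alpha agglutinin, from 52.5 ± 3.04 to 32.01 ± 3.21 CPM and AFB1, an a-factor barrier protein, from 38.8 ± 4.37 to 18.6 ± 0.514 CPM. Of 15 sporulation genes, 1 rose and 7 fell (median -0.35). SIR2, the silencing deacetylase, had 37.5, 22.4 and 39.9 CPM in the red libraries and 44.8, 56.8 and 46.8 CPM in the white ones. The white libraries lay above the red ones, of which replicate 2 was the lowest, and the call of SIR2 (log2 fold change 0.57, SE 0.214, adjusted p 0.0319 by edgeR) was lost without K504E-red replicate 2 (0.161) or K504E-white replicate 2 (0.128) or 3 (0.0518). WT-red had 23.7, 43.2 and 50.8 CPM for SIR2, a range that overlapped both mutant groups. On the silencing list SIR3, SUM1 and RPD3 were also called higher and HST2 lower (log2 fold change -0.57, SE 0.0579). The rest, SIR1 and SIR4 among them, were not called. The number called higher was 2 without K504E-white replicate 2 or 3.

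In the remaining lists, 3 of 16 TCA cycle genes rose and 6 fell, and 3 of 18 genes of peroxisomal fatty acid oxidation rose and 9 fell. Of 14 glycolytic genes 1 rose and 5 fell, counts that were 0 and 2 without K504E-white replicate 2, 0 and 3 without K504E-red replicate 2 or K504E-white replicate 1, and 0 higher without K504E-red replicate 3 or K504E-white replicate 3. Subunits of the vacuolar proton ATPase were called higher for 8 of 14 genes, with a median log2 fold change of 0.15. In NAD synthesis and salvage 3 of 13 genes rose and 6 fell, and in cell wall integrity 8 of 22 rose and 5 fell. Of 14 haploid and pheromone response genes 6 rose and 2 fell.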

How the data were processed

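RNA sequencing of 9 libraries of W303 yeast, made after poly(A) enrichment per the labels, was deposited as whole-number gene counts without normalization, and these counts, as deposited by the authors, were used. The deposited FPKM values were not used here. Genes lie on W303 contigs per the file headers; the aligner, the counting program and the use of strand are not given in the sources used here, so overlapping, antisense and near-identical genes are uncertain. Of 5205 genes, 5162 were named through the RefSeq table of S288C assembly R64 by locus tag. R64 gene coordinates and sequences served the search for near-identical copies, and no promoter sequences were used here.

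filterByExpr removed 33 genes and left 5172. All 9 libraries entered a single model with group as its only term (edgeR 4.0.16 in R 4.3.3, TMM factors 0.978 to 1.04, quasi-likelihood test, two-sided, Benjamini-Hochberg adjustment over all genes tested). A gene was called at an adjusted p under 0.05; SE came from the F statistic, and CPM are counts relative to the TMM-scaled library total. WT-red libraries contribute to the estimate of spread. Every adjusted p printed without another tool is from edgeR. The fit was tested on simulated data.

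The comparison, the 58 gene lists and the alternatives were chosen with earlier results of these data known, and 3 further lists, in the closing section, followed from the gene values. KDX1 was written for an alias, and an RNase P gene was taken off the ribosomal protein list, after the files were seen. Named genes were the 12 largest changes each way among called genes with no overlap between the groups and a mean of 10 CPM or more in the higher one, the 3 largest of each list, all members of the purine, wall, mating and isozyme lists, and CDC13; other names are examples chosen after their values were seen. Replicate numbers did not pair the samples (correlation of deviations 0.0247, -0.0626 and 0.0229 for the 3 numbers). Alternatives were other scalings and filters, DESeq2 1.42.0, limma-voom (limma 3.58.1), a fit of the 6 libraries, a replicate block, robust dispersion shrinkage (added after seeing the data) and omission of each library. Copies were searched with BLAST at 95% identity over at least 100 bp.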

Additional observations from a re-analysis of the deposited data

How the results depend on the processing

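The counts of changed, higher, lower and at least 2-fold changed genes stayed within 1.5 times their reported values under every alternative run. Under other scalings, filters, tests and models the number changed was 2775 (with a replicate block) to 2913 (DESeq2), the number higher 1386 to 1496, the number lower 1377 to 1430, and the number at least 2-fold changed 236 to 241. Leaving out 1 library gave 2510 (without K504E-white replicate 3) to 2841 changed, 1250 to 1419 higher, 1259 to 1422 lower and 231 to 248 at least 2-fold. The share of calls that were higher was 49.7% to 51.7%, and 0 genes called in both fits changed sign. The replicate block ended the call of CDC19 (-0.15, adjusted p 0.0502 by edgeR) and added that of PET9 (0.13, adjusted p 0.0456). Over 214 named genes and 18 alternatives, 3784 of 3851 values kept direction and side of the threshold, and 13 changed sign, none of them called: ADH1 (0.00149 with DESeq2 size factors, 8.16e-05 with upper quartile scaling, 0.00149 with DESeq2, -0.0371 to 0.0322 with 1 library left out), and, with 1 library left out, MF(ALPHA)1 (-0.18 to 0.89), ADE16 (-0.0299 to 0.0553), COX5A (-0.0472 to 0.0287), BAS1 (-0.0704 to 0.0183) and SNZ1 (-0.193 to 0.0648). The cause was not tested. Counting depth limits genes such as FRM2 and STE3, which are near 1 CPM in the white libraries.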

Other observations

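Some groups of genes outside the lists above also differed between the white and red cultures, and the lists that describe them were written after their values had been seen, so their counts describe those values and support nothing. Iron-sulfur cluster assembly was lower in K504E-white. Of 25 genes, 16 fell by edgeR, 7 of them at least 2-fold, and 9 were not called (median log2 fold change -0.45). DRE2, an electron donor for cytosolic cluster assembly, had 494, 514 and 499 CPM in the red libraries and 216, 224 and 219 CPM in the white ones, with WT-red at 532 ± 14.4 CPM. The groups of the mutant did not overlap, and the log2 fold change was -1.19 (adjusted p 7.77e-13, SE 0.0483) by edgeR. Genes for its cytosolic partners TAH18, CFD1, NBP35 and NAR1 had a log2 fold change of -0.99 (SE 0.0752), -1.16 (SE 0.0820), -0.83 (SE 0.0646) and -0.94 (SE 0.0611). LTO1, which helps to place a cluster on a ribosome recycling factor, had the largest fall of the list (log2 fold change -1.72, SE 0.0785), and the mitochondrial factors ISA2, IBA57 and NFU1 had a log2 fold change of -1.30 (SE 0.0804), -1.40 (SE 0.0759) and -1.09 (SE 0.0516). The cysteine desulfurase NFS1 had a log2 fold change of -0.34 (SE 0.0522), and ISA1, SSQ1 and JAC1 were not called.

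Pyrimidine genes were higher in part, with 9 of 14 genes higher and 1 lower (median 0.34). The list held genes of synthesis, salvage and uptake and the regulator PPR1, which was the member that fell. Those that rose included the salvage genes URK1, FUR1 and FCY1. URA1, the dihydroorotate dehydrogenase, had 62.3, 65.2 and 64.4 CPM in K504E-red, 283, 319 and 259.8 CPM in K504E-white and 109 ± 13.7 CPM in WT-red. Its white libraries lay above both red groups (log2 fold change 2.17, SE 0.0853, adjusted p 6.04e-13 by edgeR). URA3 and the CTP synthase URA7 rose by log2 fold changes of 1.02 (SE 0.0692) and 1.04 (SE 0.109), whereas URA5, URA6 and URA8 were not called. In the pentose phosphate pathway, ZWF1, the first enzyme and a source of NADPH, fell from 1182, 1168 and 1164 CPM to 505, 542 and 518 CPM (log2 fold change -1.17, SE 0.0590), within a list of 10 genes of which 3 rose and 5 fell. DSF1, a mannitol dehydrogenase with a near-identical copy in MAN2, rose with a log2 fold change of 2.59 (SE 0.181), a value made uncertain by that copy.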
